A study of Mus musculus with 18 samples.

Results

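The difference between the 2 sides of the mouse in the response to IFN-alpha-pMC was measured in melanoma grafts, gene by gene. It is the change from untreated control in the right tumour, beside which cells were injected, minus the change from untreated control in the left tumour, which was distant from the injection. A value of 1 on the log2 scale means that the fold change on the right was 2-fold that on the left. The comparison took 12 of the 18 bulk RNA sequencing libraries of the series, 3 in each of 4 groups. The other 6, 3 right and 3 left, came from mice given iPSC-pMCs without the IFN-alpha mark on the same days, and they enter the fit through the filter, the scaling and the estimate of spread, which moves the adjusted p-values. In all, 14849 of 37620 gene IDs had enough counts to be tested. All groups were C57BL/6 mice with MO4 tumours, a B16F10 melanoma line that expresses ovalbumin, inoculated under the skin of both hindlimbs on day 0. The right and left control groups received no cells. The IFN-alpha-pMC groups of both sides came from mice given IFN-alpha-iPSC-pMCs, cells derived from induced pluripotent stem cells and marked IFN-alpha, near the right tumour on days 5, 6 and 7, and RNA was taken from all tumours on day 11. The age and sex of the mice, how the cells were made to carry IFN-alpha, and whether same-numbered right and left libraries came from 1 mouse are not given in the labels, nor is it said that the libraries of a group came from separate mice, so the p-values cover only the spread between these libraries, which may be technical.

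Interferon alpha is a secreted type I interferon. It binds a receptor made of IFNAR1 and IFNAR2, and the kinases JAK1 and TYK2 then activate transcription factors that switch on interferon-stimulated genes. Nearly every nucleated cell type can respond in this way, tumour cells included, and type I interferon also supports dendritic cells, natural killer (NK) cells and T cells. Killer lymphocytes carry perforin and granzymes, and the interferon gamma they secrete induces a second, overlapping set of genes. In a bulk sample, fewer cells of a type and less RNA per cell cannot be told apart, and neither can gene activity in tumour and in immune cells.

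Library totals ran from 14.35 to 23.43 in units of 1000000 counts over the 12 libraries. Levels are counts scaled to a library of 1000000 (CPM) on the scale of the fitted model, effects are log2 fold changes, and errors are standard errors (SE) of the model. Every p-value of a gene is from edgeR's quasi-likelihood test, and adjusted values are Benjamini-Hochberg values over the 14849 genes. Transcripts of the melanocyte lineage, which mark the tumour, were abundant throughout, with a summed level of 40040 to 55230 CPM in each library. The library with the lowest mean Spearman correlation with its own group was picked in each of 3 groups and is called here a library that stood apart: control 3 on the right (0.945), IFN-alpha-pMC 3 on the right (0.963) and IFN-alpha-pMC 1 on the left (0.968). Right control 2 (0.958) and right control 1 (0.968) were as low or lower than some of these. The 24 listed skeletal muscle genes summed to 936 to 5073 CPM in IFN-alpha-pMC libraries and to 59.4 to 1342 CPM in controls of both sides. Read pairs outside annotated genes made up 4.04 to 6.12% of IFN-alpha-pMC libraries and 6.87 to 12.2% of control libraries. The part of these differences in the results below was not tested, beyond the fits that hold a muscle score or leave those 3 libraries out.

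No single gene passed the test of a difference between the sides (0 of 14849, 0%, at an adjusted p under 0.05). The smallest adjusted p was 0.0581. At an unadjusted p under 0.05, 661 genes were higher on the right (4.45%) and 257 lower (1.73%), while 50.8% of all genes tested had a value above 0. That split moved with the fit: it was 602 and 658 after correcting for GC content and transcript length, 951 and 1466 without right control 2, and 1690 and 1884 without the 3 libraries named above. At an adjusted p under 0.1 there were 24 higher (0.162%) and 0 lower in the fit to all 18 libraries. With the 12 libraries alone the smallest adjusted p was 0.361, and without left control 3 it was 0.284, so that none passed 0.1 there. The 24 included genes of T cells (Cd3g, Cd5), killer lymphocytes (Prf1, Tbx21, Il2rb) and inflammatory monocytes (Ly6c2). DESeq2 on the same counts called 87 genes, 83 higher and 4 lower. edgeR called 41 genes with the replicate number as a block and 20 with right-left pairs as the block, all higher. The labels do not say whether the numbers pair the samples. With the 12 libraries alone or with a muscle score edgeR gave 0 calls. Without the 3 libraries named above, edgeR called 761 genes, 275 higher and 486 lower. That removal takes out the library least like its group in each of 3 groups, which by itself tends to lower the estimated spread. Differences moved as well, for Isg15 from -0.12 to 0.93, and the part of each in these calls was not tested. The median SE of a difference was 0.35, and for 6687 genes (45.0%) the 95% interval lay between -1 and 1.

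The same treatment gave many changes on each side when the sides were tested singly. On the right 1303 genes rose (8.78%) and 298 fell (2.01%). On the left 601 rose (4.05%) and 386 fell (2.60%). These shares, with the 4.45% higher and 1.73% lower at an unadjusted p under 0.05, are the background for list counts below. After correcting for GC content and transcript length, 1385 genes rose and 1772 fell on the right. The left count of 987 genes moved with the fit, to 4331 without the 3 libraries that stood apart, to 123 with the 12 libraries alone and 175 with a muscle score as a covariate, so left calls of single genes below hold for the fit to all 18 libraries. The right and left effects share no library but may share mice, and the part of that in their overlap was not tested. They shared 441 rises, which is 33.8% of those on the right and 73.4% of those on the left, and 102 falls (34.2% and 26.4%), and 0 genes passed in opposite directions. Of the 1303 genes that rose on the right, 1239 (95.1%) had a left effect above 0, with a median of 0.90 on the left and 1.81 on the right. These genes were chosen by the right effect, so the gap between the 2 medians partly follows from that choice. The 601 genes that rose on the left, chosen by the left effect, had a median of 1.42 there and 1.71 on the right. Among the 386 that fell on the left the medians were -0.96 on the left and -0.65 on the right. Across all genes tested the right and left effects had a Pearson r of 0.69, a description over genes that share the same libraries.

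**Figure D1:**
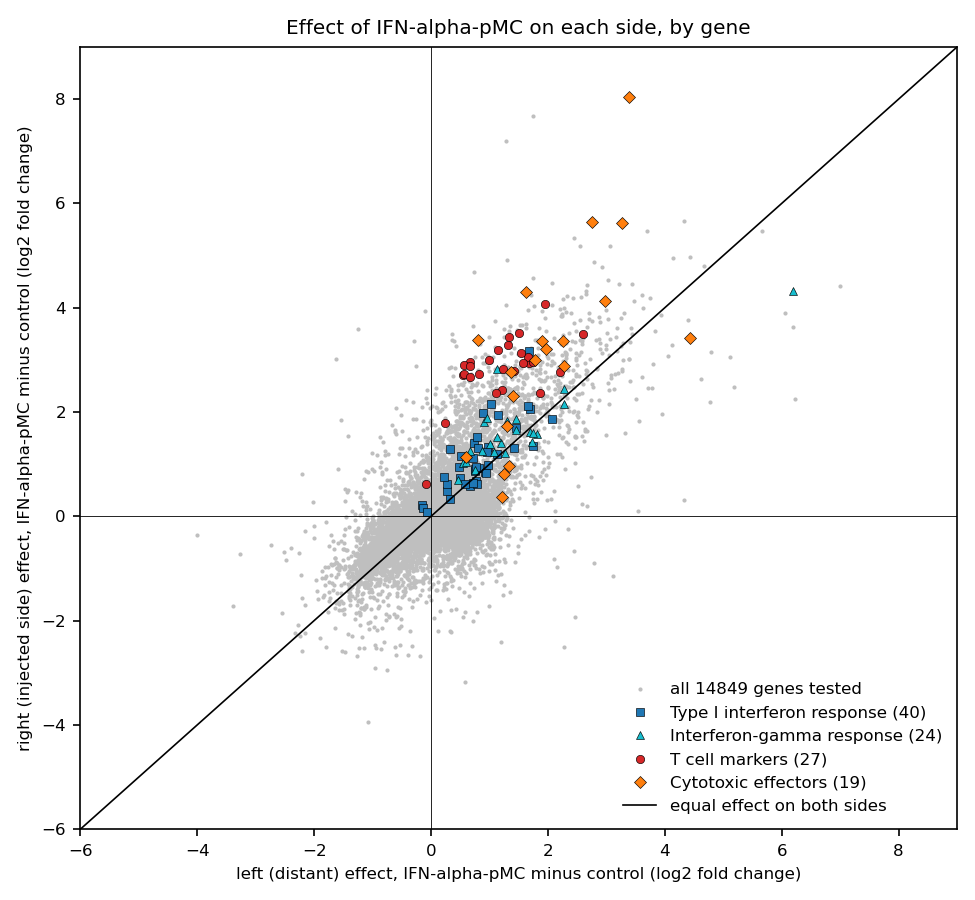
Each point is 1 gene, with the left effect of IFN-alpha-pMC on the x axis and the right effect on the y axis, both as log2 fold change from control. T cell markers (27) and most cytotoxic effectors (19) lie above the line of equal effects, while many genes of the type I interferon (40) and interferon-gamma (24) responses lie near it.

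Genes of T cells had the highest list median of the difference, 1.60, against 0.01 over all genes tested. All 27 tested T cell markers had a value above 0, and 22 had an unadjusted p under 0.05, all of them higher on the right. On the right 26 of them rose, with a median of 2.90, and on the left 12 rose, with a median of 1.23. In 24 of the 27 the 3 right IFN-alpha-pMC libraries were above the other 9 libraries, an order found for 7.67% of all genes. That order does not by itself show a difference between the sides. It was found for 10 of 23 muscle genes, whose median difference was -0.18. None of the 27 passed at an adjusted p under 0.05 in edgeR's test without a block. DESeq2 called 7, and 11 were called without the 3 libraries that stood apart. edgeR called 5 with the replicate number as a block, 4 with right-left pairs and 0 with the 12 libraries alone or a muscle score. The whole list summed to 350 to 458 CPM in right IFN-alpha-pMC, 101 to 159 CPM in left IFN-alpha-pMC and 39.2 to 70.0 CPM in the 6 controls.

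Cd5 (ENSMUSG00000024669), a receptor that tunes T cell receptor signalling, was at 0.82, 1.31 and 0.94 CPM in right controls and 0.96, 1.27 and 1.56 CPM in left controls. It was at 5.44, 8.44 and 9.20 CPM in right and 1.91, 1.72 and 2.01 CPM in left IFN-alpha-pMC. The right libraries were thus well above all others, while the left ones were just above the controls. The difference was 2.33 ± 0.44 (95% interval 1.40 to 3.26, adjusted p = 0.0723), made of a right effect of 2.90 ± 0.31 and a left effect of 0.57 ± 0.32 that did not pass (adjusted p = 0.195).

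Cd3g (ENSMUSG00000002033), which encodes CD3 gamma of the T cell receptor, was at 28.0, 37.0 and 26.1 CPM in right IFN-alpha-pMC and 9.49, 9.29 and 6.47 CPM in left IFN-alpha-pMC. Controls lay between 1.97 and 4.07 CPM. The 3 levels did not overlap, and Cd3g rose on both sides, by 3.44 ± 0.30 on the right and 1.34 ± 0.28 on the left (difference 2.1 ± 0.40, adjusted p = 0.0723). Cd3e, which encodes CD3 epsilon, differed by 2.29 ± 0.55 (adjusted p = 0.162), and the costimulatory receptor Cd28 by 2.05 ± 0.46 (adjusted p = 0.137). Among coreceptors, the difference was 1.97 ± 0.47 for Cd8b1 (adjusted p = 0.159) and 1.37 ± 0.53 for Cd8a (adjusted p = 0.606). Both rose on both sides. Cd4 stood at 9.21, 13.6 and 11.5 CPM in right and 2.37, 4.87 and 3.42 CPM in left IFN-alpha-pMC, and the left libraries overlapped the control range of 2.15 to 4.80 CPM. Cd4 rose on the right (1.79 ± 0.35, adjusted p = 0.00255), its left effect was 0.24 ± 0.36, and the difference was 1.54 ± 0.50 (adjusted p = 0.42). Tcf7, a transcription factor of naive and memory-like T cells, had a smaller value, 0.71 ± 0.29, and passed on neither side.

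**Figure D2:**
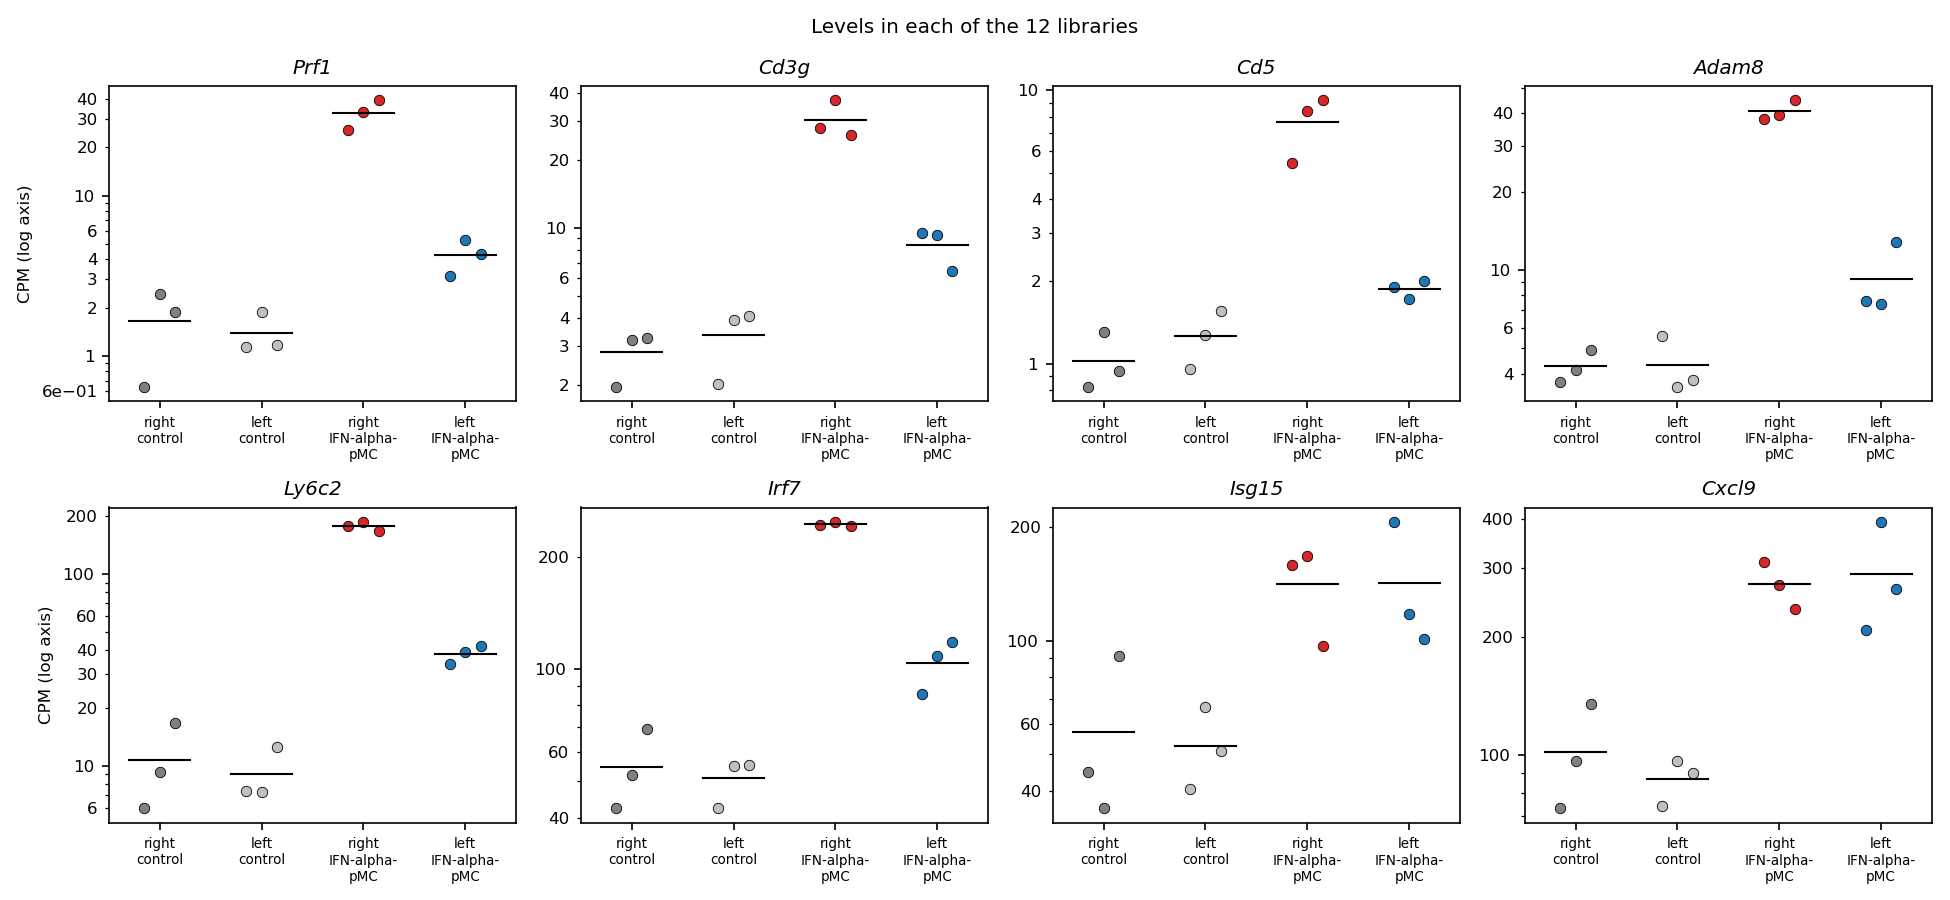
Level of 8 genes in each of the 12 libraries in CPM on a log axis, with points for libraries and bars for group means. For Prf1, Cd3g, Cd5, Adam8, Ly6c2 and Irf7 the right IFN-alpha-pMC libraries stand above all others, and for Isg15 and Cxcl9 the right and left IFN-alpha-pMC libraries overlap.

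Genes of killing showed large effects on both sides, and larger ones on the right in most but not all cases. Of 19 tested cytotoxic effector genes, 15 had a difference above 0 and 9 had an unadjusted p under 0.05, all higher on the right. The list median was 1.15, from 3.22 on the right, where 16 rose, and 1.77 on the left, where 12 rose. Without Gzmc and Gzmd, which had at most 3 counts over a control group, the median of the difference was also 1.15, and it was 1.23 with the group at 0 counts set to 3 counts. DESeq2 called 4 of the 19, and 8 were called without the 3 libraries that stood apart. edgeR called 2 with the replicate number as a block, 4 with right-left pairs and 0 with the 12 libraries alone or a muscle score.

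Prf1 (ENSMUSG00000037202), the pore-forming protein perforin, was at 0.64, 2.44 and 1.88 CPM in right controls and 1.13, 1.88 and 1.17 CPM in left controls. It reached 25.6, 33.1 and 39.3 CPM in right and 3.14, 5.26 and 4.29 CPM in left IFN-alpha-pMC. All 3 left values were above all controls and all 3 right values above the left ones. Prf1 rose by 4.30 ± 0.37 on the right (adjusted p = 2.96e-06) and by 1.62 ± 0.37 on the left (adjusted p = 0.0228), and the difference was 2.68 ± 0.50 (95% interval 1.62 to 3.75, adjusted p = 0.0723). Tbx21 (ENSMUSG00000001444), the transcription factor T-bet of effector T and NK cells, was at 5.35, 8.14 and 8.57 CPM in right IFN-alpha-pMC. It was at 0.92, 1.72 and 1.79 CPM in left IFN-alpha-pMC and 0.37 to 1.05 CPM in controls, so that the left libraries overlapped the controls. Its difference was 2.56 ± 0.49 (adjusted p = 0.0723).

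The granzymes, proteases delivered through perforin pores, also had large differences. Gzmb was at 151, 186 and 139 CPM in right and 33.8, 20.2 and 17.2 CPM in left IFN-alpha-pMC, against 1.46 to 6.38 CPM in controls, and the difference was 2.37 ± 0.58 (adjusted p = 0.166). For Gzma it was 2.88 ± 0.66 (adjusted p = 0.137). Both rose on both sides. Other members differed less between the sides. Ifng, the gene of interferon gamma, was at 6.52 to 8.19 CPM on the right and 2.39 to 3.79 CPM on the left, both above the control range of 0.32 to 1.26 CPM, and its difference was 1.09 ± 0.58 (95% interval -0.13 to 2.31). Ccl5, a chemokine of activated T and NK cells, differed by 0.90 ± 0.26 (adjusted p = 0.306). Read pairs that align to several granzyme copies were not counted, so the split among granzymes is uncertain.

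NK cell genes had a list median of 0.94, from 2.93 on the right and 1.87 on the left. The median was 1.68 without right control 3, 1.65 without left IFN-alpha-pMC 1 and 2.23 without all 3 libraries that stood apart, where 9 genes were called. Of 19 tested genes, 18 had a difference above 0, 5 had an unadjusted p under 0.05 and 16 rose on the right and 10 on the left. Over all genes tested, 4.45% were higher at that p, 8.78% rose on the right and 4.05% on the left. Il2rb, a receptor chain for interleukins 2 and 15 on NK and T cells, was at 42.1, 60.9 and 76.7 CPM in right and 9.57, 13.1 and 14.0 CPM in left IFN-alpha-pMC. Its left libraries overlapped the control range of 4.30 to 13.3 CPM, and the difference was 2.43 ± 0.48 (adjusted p = 0.0752). Receptors typical of NK cells had wide intervals. Ncr1 (NKp46) rose on both sides and differed by 0.74 ± 0.59 (95% interval -0.52 to 1.99), and Klrb1c (NK1.1) rose on both sides and differed by 1.31 ± 0.61 (adjusted p = 0.743).

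Checkpoint and regulatory genes of T cells had a median difference of 0.97. Of 17 tested, 9 had an unadjusted p under 0.05 and were higher on the right, 13 rose on the right and 3 rose on the left. The matching shares over all genes were 4.45%, 8.78% and 4.05%. Lag3, an inhibitory receptor, was at 7.96, 9.63 and 12.4 CPM in right and 3.75, 3.05 and 3.21 CPM in left IFN-alpha-pMC, against 1.68 to 2.79 CPM in controls. It rose on the right and its left effect of 0.61 ± 0.26 did not pass; the difference was 1.58 ± 0.36 (adjusted p = 0.137). Pdcd1, the receptor PD-1, differed by 0.99 ± 0.72 and its ligand gene Cd274 by 0.53 ± 0.37, with intervals that include 0. Foxp3, the factor of regulatory T cells, stood at 0.81 to 2.41 CPM in all IFN-alpha-pMC libraries and 0.31 to 1.40 CPM in controls and passed on neither side.

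Several other genes had p-values among the smallest, and which cells expressed them was not tested. Arrb2 (ENSMUSG00000060216), beta-arrestin 2, which desensitises chemokine and other G protein-coupled receptors, had the smallest SE among them. It was at 50.5, 44.5 and 53.2 CPM in right IFN-alpha-pMC and between 21.9 and 27.1 CPM in the other 9 libraries, left IFN-alpha-pMC included. The left effect was 0.02 ± 0.13, the right effect 1.07 ± 0.13, and the difference 1.05 ± 0.18 (95% interval 0.68 to 1.43, adjusted p = 0.0716). Adam8 (ENSMUSG00000025473), a membrane metalloprotease of leukocytes, was at 37.9, 39.2 and 44.8 CPM on the right and 7.58, 7.42 and 12.8 CPM on the left after IFN-alpha-pMC, with controls between 3.56 and 5.59 CPM. It rose on both sides and differed by 2.16 ± 0.34 (adjusted p = 0.0581).

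Treml2 (ENSMUSG00000071068), a surface receptor of myeloid and lymphoid cells, was at 8.61, 8.56 and 9.40 CPM in right and 2.45, 3.19 and 2.45 CPM in left IFN-alpha-pMC, against 1.10 to 1.98 CPM in controls. The difference was 2.03 ± 0.31 (adjusted p = 0.0581). Sash3, a lymphocyte signalling adaptor, differed by 1.59 ± 0.27 (adjusted p = 0.0716) and the blood cell phosphatase Ptpn7 by 1.40 ± 0.26 (adjusted p = 0.0723). Ripk3, the kinase of necroptosis, differed by 1.62 ± 0.29 (adjusted p = 0.0723). This is the right minus left value of the treated tumours, 1.10 ± 0.20, minus that of the controls, -0.52 ± 0.21. B4galnt1, a ganglioside synthase, was at 2.04 ± 0.35, the small GTPase Rhof at 1.96 ± 0.37 and Acap1, a regulator of ARF GTPases, at 2.53 ± 0.48. All of these rose on the right, and of the 9 genes in this and the preceding paragraph only Adam8 also passed on the left.

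Myeloid genes were less uniform. Of 28 tested monocyte and macrophage genes, 23 had a difference above 0, with 7 higher and 1 lower at an unadjusted p under 0.05. The median was 0.52, from 1.56 on the right, where 19 rose, and 1.19 on the left, where 16 rose. DESeq2 called 2 and, without the 3 libraries that stood apart, 14 were called. Ly6c2 (ENSMUSG00000022584), a marker of inflammatory monocytes that some T cells carry too, was at 177, 186 and 167 CPM in right and 33.7, 38.9 and 42.0 CPM in left IFN-alpha-pMC, above the control range of 5.99 to 16.8 CPM. It rose on both sides, with a difference of 1.99 ± 0.40 (95% interval 1.14 to 2.84, adjusted p = 0.0821). Cd68, a lysosomal protein of macrophages, differed by 1.29 ± 0.28 (adjusted p = 0.125) and did not pass on the left. The chemokine Ccl2 rose on both sides and differed by 0.84 ± 0.54 (95% interval -0.30 to 1.98).

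Marco, a scavenger receptor of macrophages, went the other way on few counts. It had 3, 1 and 2 counts in right IFN-alpha-pMC, and its difference of -3.61 ± 1.07 depends on these. Genes of alternative macrophage activation were all above 0 (13 of 13, median 0.82), 4 rose on the right and 0 on the left. The matching shares over all genes were 50.8%, 8.78% and 4.05%. Arg1, which breaks down arginine, spanned 17.8 to 120 CPM in right IFN-alpha-pMC and 1.57 to 5.36 CPM in left IFN-alpha-pMC, with right control 3 at 5.32 CPM, and its difference was 2.11 ± 1.46 (95% interval -0.97 to 5.19). It was 1.14 without left control 1 and 4.49 without right control 3, and it passed without the 3 libraries that stood apart (5.16, adjusted p = 0.0239). Nos2, which makes nitric oxide from the same amino acid, was at 4.84, 4.97 and 8.02 CPM on the right and 1.53, 3.0 and 2.61 CPM on the left after IFN-alpha-pMC. It passed on the right, not on the left, and differed by 1.69 ± 0.51 (adjusted p = 0.348).

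**Figure D3:**
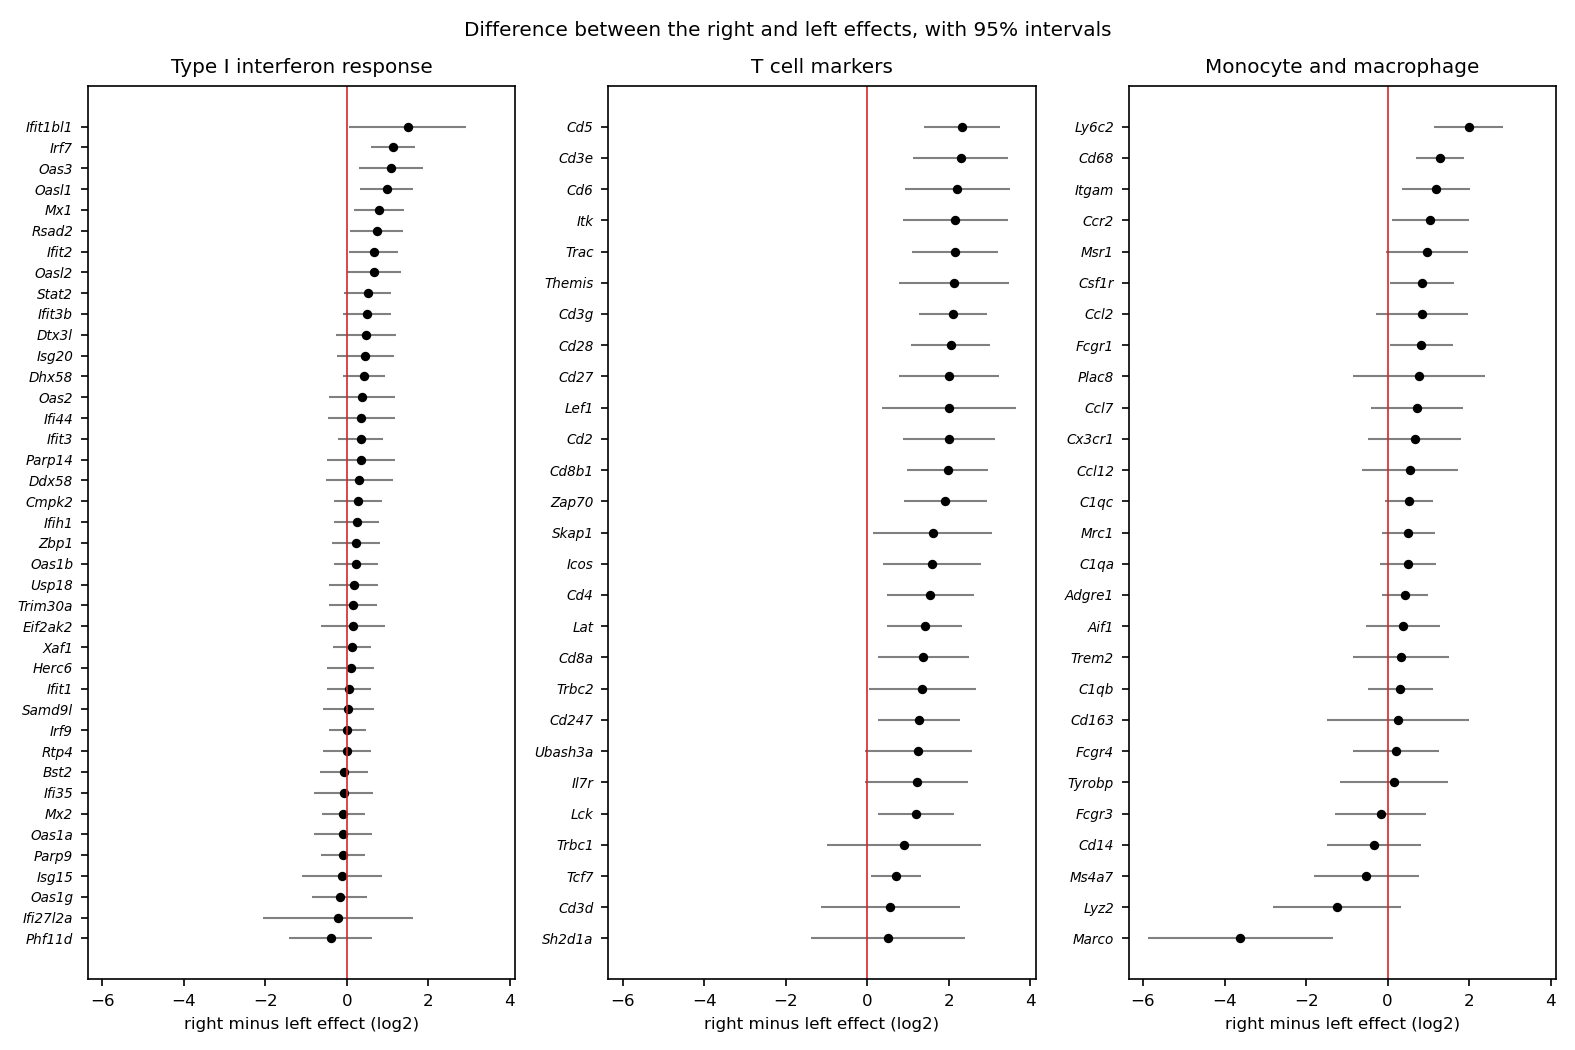
Difference between the right and left effects (log2, x axis) for the genes shown of 3 lists, with points for the estimate and lines for the 95% interval. Estimates of the T cell markers lie above 0 throughout (median 1.60), and 22 of the 27 had an unadjusted p under 0.05 in edgeR's test. The type I interferon response genes gather around 0.24. The monocyte and macrophage genes run from Marco at -3.61 to Ly6c2 at 1.99.

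Many interferon-stimulated genes rose on both sides, with differences nearer to 0. Of the 40 type I interferon response genes, 29 rose on the right (median 0.96) and 23 on the left (median 0.78). The median difference was 0.24, 31 of the 40 were above 0, and 7 had an unadjusted p under 0.05, all higher on the right. For 21 of the 40 the 95% interval lay between -1 and 1, against 45.0% of all genes. The order with the 3 right IFN-alpha-pMC libraries on top was seen for 15 of 40, against 7.67% of all genes. DESeq2 called 1 of them (Irf7), and 3 were called without the 3 libraries that stood apart. The list summed to 5686 to 6116 CPM in right IFN-alpha-pMC, 4626 to 5242 CPM in left IFN-alpha-pMC and 2396 to 3209 CPM in controls.

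Isg15 (ENSMUSG00000035692), a ubiquitin-like protein induced by type I interferon, was at 44.8, 35.9 and 90.9 CPM in right controls and 40.5, 66.7 and 50.9 CPM in left controls. It was at 158, 168 and 97.0 CPM in right and 206, 118 and 101 CPM in left IFN-alpha-pMC. The 2 treated groups overlapped and both lay above all controls. Isg15 rose on the right (1.30 ± 0.33, adjusted p = 0.0164) and the left (1.43 ± 0.33, adjusted p = 0.0279), and the difference was -0.12 ± 0.46 (95% interval -1.10 to 0.86). Its highest left value came from left IFN-alpha-pMC 1 and its lowest treated value from right IFN-alpha-pMC 3, and without those libraries and right control 3 the difference was 0.93. Ifit1, an RNA-binding antiviral protein, was at 236, 215 and 175 CPM on the right and 176, 199 and 174 CPM on the left, with a difference of 0.06 ± 0.26 (95% interval -0.49 to 0.60).

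Irf7 (ENSMUSG00000025498), the factor that amplifies type I interferon production, had the smallest adjusted p of the list. It was at 243, 248 and 241 CPM in right IFN-alpha-pMC, 85.5, 108 and 118 CPM in left IFN-alpha-pMC and 42.3 to 69.1 CPM in controls, so that the 3 levels did not overlap. It rose by 2.16 ± 0.18 on the right and 1.03 ± 0.18 on the left, a difference of 1.13 ± 0.25 (95% interval 0.60 to 1.66, adjusted p = 0.137). Mx1, an antiviral GTPase, rose on both sides and differed by 0.78 ± 0.29 (adjusted p = 0.561).

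The interferon-gamma response list had a median difference of 0.22 over 24 tested genes. Of these, 17 had a difference above 0 and 4 were higher at an unadjusted p under 0.05. In 7 the 3 right IFN-alpha-pMC libraries were above the other 9, against 7.67% of all genes. On the right 24 rose and on the left 19. Cxcl9, a chemokine for T cells, was at 311, 271 and 235 CPM in right and 208, 392 and 264 CPM in left IFN-alpha-pMC, with controls between 73.0 and 135 CPM. The treated groups overlapped, and the difference was -0.31 ± 0.33 (95% interval -1.0 to 0.38). Cxcl10, a second ligand of the same receptor, differed by 0.41 ± 0.33 and the guanylate-binding protein Gbp2 by 0.20 ± 0.30. All 3 rose on both sides. The median was 0.23 without Ido1, which had 0 counts in left controls, and 0.30 with that group set to 3 counts.

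The promoters of Isg15, whose effects overlapped between the sides, and Prf1, whose effects were far apart, are shown with a search for the interferon-responsive element. The letters GAAANNGAAA, the core of the interferon-stimulated response element, which IRF proteins bind, were searched on both strands of RefSeq windows from 250 bases before to 50 bases after a start (GRCm38.p6). The genes and lists searched were chosen after their values were seen. Isg15 lies on the minus strand at chr4:156200769-156201068, and capitals mark 3 overlapping matches that begin at bases 173, 179 and 185. Prf1 lies on the plus strand at chr10:61297586-61297885 and holds no match in this window.
Isg15: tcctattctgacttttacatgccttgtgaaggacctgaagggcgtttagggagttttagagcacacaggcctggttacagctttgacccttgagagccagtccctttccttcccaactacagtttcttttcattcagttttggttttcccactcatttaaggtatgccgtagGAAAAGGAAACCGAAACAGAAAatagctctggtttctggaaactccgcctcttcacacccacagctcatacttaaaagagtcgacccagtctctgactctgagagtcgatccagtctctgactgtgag
Prf1: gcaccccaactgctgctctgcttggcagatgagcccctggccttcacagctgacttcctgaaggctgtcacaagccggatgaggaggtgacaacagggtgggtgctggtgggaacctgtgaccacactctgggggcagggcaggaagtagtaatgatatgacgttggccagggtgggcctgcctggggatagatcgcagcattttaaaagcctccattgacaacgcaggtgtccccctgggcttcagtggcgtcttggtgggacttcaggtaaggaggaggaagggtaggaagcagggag
A match was present in 3.44% of all 32851 windows and, counted by gene, in 3.99% of 27025 genes with a window. It was present in 15 of 29 genes of the type I interferon list that could be matched (51.7%), in 10 of 14 of the interferon-gamma list (71.4%), in 3 of 16 cytotoxic effectors (18.8%), in 1 of 14 NK cell genes, in 2 of 19 monocyte and macrophage genes and in 0 of 15 T cell markers. Irf7 held no match in its window.

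Genes of interferon receptors and signal transducers had a median difference of 0.46 over 13 tested, with 4 higher at an unadjusted p under 0.05. Ifnar1 lay between 76.1 and 122 CPM, with a difference of -0.01 ± 0.24 (95% interval -0.51 to 0.49). Ifnar2, the other receptor chain, was at 37.1, 38.5 and 40.8 CPM in right IFN-alpha-pMC and between 22.8 and 31.4 CPM in the other 9 libraries. It rose on the right (0.57 ± 0.14, adjusted p = 0.0117) and differed by 0.49 ± 0.19 (adjusted p = 0.643). Socs1, an inhibitor of the pathway, rose on both sides and differed by 0.91 ± 0.36 (adjusted p = 0.654).

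MHC class I genes, which show peptides to CD8+ T cells, had a median difference of 0.56 over 17 tested, with 8 higher at an unadjusted p under 0.05. On the right 15 rose and on the left 7. The shares over all genes were 4.45% higher at that p, 8.78% rising on the right and 4.05% on the left. H2-Q6, a nonclassical class I gene, was at 41.1, 48.3 and 68.2 CPM in right and 16.1, 18.8 and 18.4 CPM in left IFN-alpha-pMC, against 9.20 to 12.8 CPM in controls, and differed by 1.54 ± 0.29 (adjusted p = 0.0723). The classical gene H2-D1 was at 2150, 2617 and 2304 CPM on the right and 1261, 1709 and 1656 CPM on the left and differed by 0.74 ± 0.26 (adjusted p = 0.528). Reads shared among near-identical class I genes were not counted, so these values are uncertain as to which copy they belong to. MHC class II genes, which serve CD4+ T cells, had a median difference of 0.17 over 12 tested, and 6 were above 0. H2-Aa rose on both sides (1.31 ± 0.34 and 1.33 ± 0.34) with a difference of -0.02 ± 0.48 (95% interval -1.04 to 0.99).

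Genes listed for the XCR1+ conventional dendritic cell, which cross-presents tumour antigen to CD8+ T cells, had a median of 0.22 over 15 tested. Their abundance was unlike: Cadm1 had 97569 counts and Id2 21522 over the 12 libraries, against 890 for Xcr1 and 562 for Clec9a. Which cells gave these counts was not tested. At an unadjusted p under 0.05, 2 of the 15 were higher, against 4.45% of all genes. A difference above 0 was found in 10 of the 15, against 50.8% of all genes. Xcr1 and Clec9a, defining markers of this cell, were among the others, with estimates below 0 and intervals that include 0. Xcr1 was at 5.86, 3.95 and 5.41 CPM in right and 4.13, 5.31 and 5.87 CPM in left IFN-alpha-pMC, and in right controls it spanned 1.55 to 4.57 CPM. The treated groups overlapped, Xcr1 rose on the left (1.2 ± 0.34, adjusted p = 0.046), its right effect of 0.73 ± 0.33 did not pass, and the difference was -0.47 ± 0.47 (95% interval -1.46 to 0.51). Clec9a, a receptor of these cells for dead-cell remains, followed the same pattern, with a difference of -0.61 ± 0.51 (95% interval -1.69 to 0.47). A right effect that misses and a left effect that passes do not show that the sides differ. Activated dendritic cell genes had a median difference of 0.21 over 14 tested. Plasmacytoid dendritic cell genes had a median of 0.62 over 12 tested. At an unadjusted p under 0.05, 4 were higher, among them Irf7, against 4.45% of all genes. Irf7 and Bst2 of this list are also members of the type I interferon list, so the 2 lists are not separate.

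**Figure D4:**
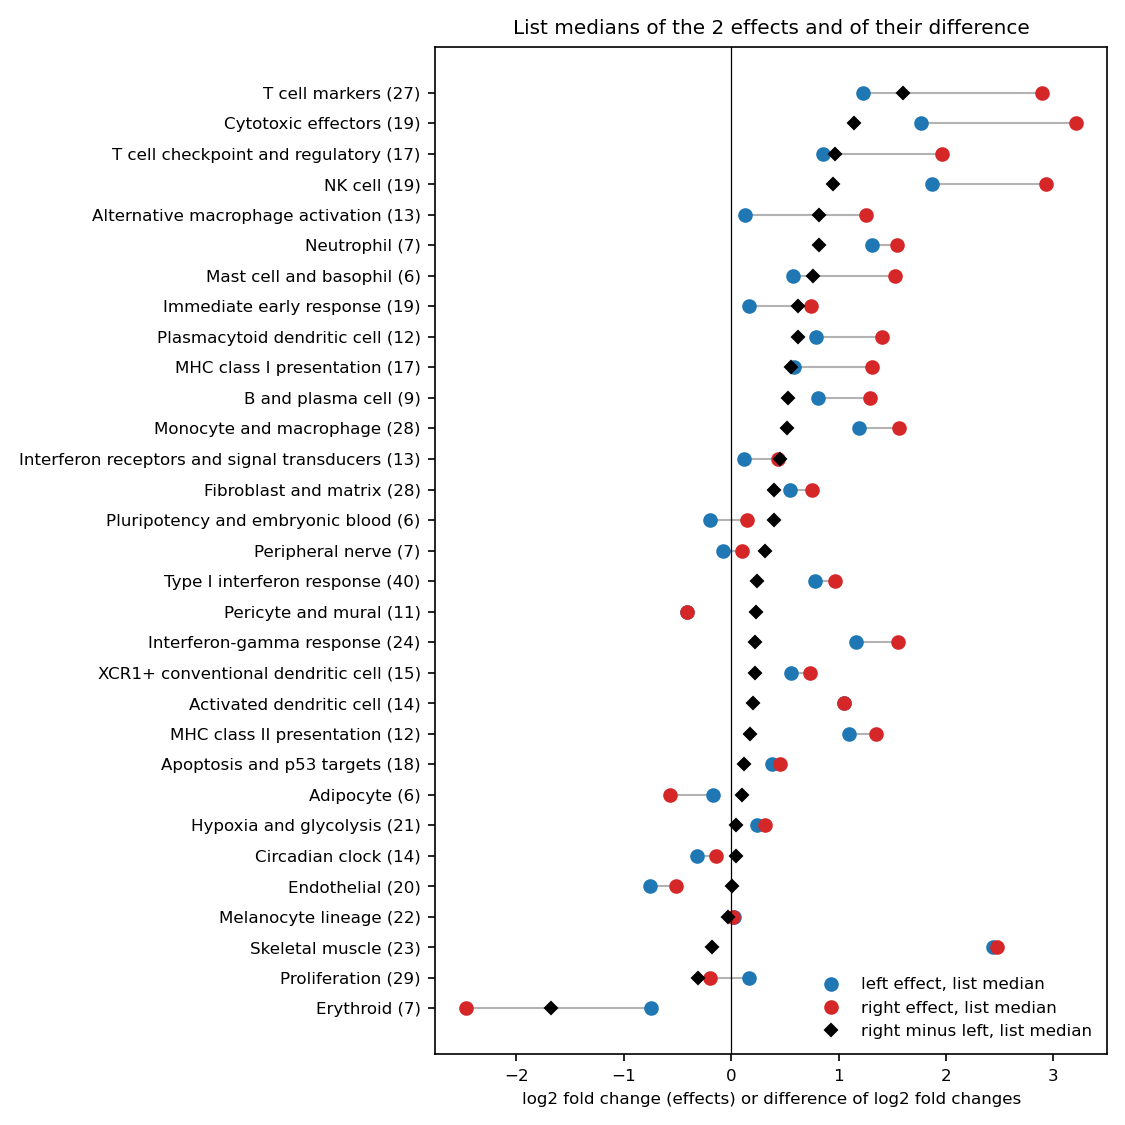
Median left effect (blue), right effect (red) and difference (black) of each list with tested genes, in log2 units, with the number of tested genes in parentheses. The right and left medians are far apart for T cell markers (2.90 and 1.23) and close for skeletal muscle (2.48 and 2.44).

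On the lower side no gene had an adjusted p below 0.137. Enpp6 (ENSMUSG00000038173), a choline phosphodiesterase, was at 4.65, 4.25 and 3.24 CPM in right IFN-alpha-pMC and 8.21 to 13.9 CPM in the other 9 libraries. It fell on the right, by 1.51 ± 0.22, its left effect was -0.19 ± 0.21, and the difference was -1.32 ± 0.30 (95% interval -1.96 to -0.68, adjusted p = 0.138). The order with the 3 right IFN-alpha-pMC libraries below the other 9 was found for 0.721% of all genes. The predicted gene Gm15754 was at 0.70, 0.72 and 0.71 CPM in right IFN-alpha-pMC and 1.67 to 4.21 CPM elsewhere (difference -2.32 ± 0.52, adjusted p = 0.137).

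Nsdhl, an enzyme of the later steps of cholesterol synthesis, was at 137, 126 and 110.0 CPM in right and 194, 205 and 199 CPM in left IFN-alpha-pMC, with controls between 167 and 213 CPM (difference -0.70 ± 0.20, adjusted p = 0.274). Acat2, which joins acetyl-CoA units, was at 28.6, 29.7 and 20.5 CPM on the right and 43.3, 47.5 and 37.1 CPM on the left and differed by -0.87 ± 0.27 (adjusted p = 0.372), passing on neither side. Rgs5, a regulator of G protein signalling that marks pericytes, differed by -0.81 ± 0.25 (adjusted p = 0.366). The list of pericyte and mural genes did not share this direction. Its median difference was 0.23 over 11 tested, with 6 above 0 and 1 lower at an unadjusted p under 0.05. DESeq2 called Nsdhl, Zwilch, Enpp6 and Gm15754. Among 29 proliferation genes 5 were above 0 and 4 were lower at an unadjusted p under 0.05, with a median of -0.31, and 0 passed on either side. Ccnb1, a mitotic cyclin, was at 72.9, 62.5 and 56.9 CPM on the right and 95.9, 93.8 and 88.6 CPM on the left, and differed by -0.92 ± 0.32 (adjusted p = 0.497); right control 3 was at 117 CPM. Without the 3 libraries that stood apart 6 proliferation genes were called lower.

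Red cell genes had the lowest list median, -1.68 over 7 tested genes, with 0 above 0 and 1 lower at an unadjusted p under 0.05. On the right 5 of the 7 fell and on the left 0, against 2.01% and 2.60% of all genes. The median difference rested partly on single libraries: it was -0.92 without right control 3 and -0.32 without all 3 libraries that stood apart. The alpha globin gene Hba-a2 was at 9.01, 5.41 and 22.3 CPM in right controls, 3.39, 2.28 and 5.80 CPM in left controls, 1.49, 2.39 and 1.03 CPM in right IFN-alpha-pMC and 1.68, 2.11 and 2.06 CPM in left IFN-alpha-pMC. The treated groups overlapped. The difference of -1.95 ± 0.70 (adjusted p = 0.534) is the right minus left value of the treated tumours, -0.29 ± 0.52, minus that of the controls, 1.66 ± 0.48.

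Melanocyte lineage genes were near 0, with a median difference of -0.03 over 22 tested and 0 with an unadjusted p under 0.05. For 15 of the 22 the 95% interval lay between -1 and 1. Tyr, the enzyme of pigment synthesis, spanned 1461 to 2468 CPM in right and 2347 to 4425 CPM in left IFN-alpha-pMC, and its difference was -0.66 ± 0.41 (95% interval -1.53 to 0.21). Of 23 muscle genes 3 rose on the right (list median 2.48) and 5 on the left (list median 2.44). Over all genes tested 8.78% rose on the right and 4.05% on the left. The muscle genes had a median difference of -0.18, with a median SE of 1.47. The creatine kinase gene Ckm was at 146, 190.1 and 228 CPM in right and 84.4, 75.6 and 57.2 CPM in left IFN-alpha-pMC, but controls spanned 0.34 to 71.0 CPM and the difference was -0.80 ± 1.47 (95% interval -3.90 to 2.31). With a muscle score as a covariate 0 genes passed the test of the difference. Over the 29 alternative settings the median difference lay between 1.29 and 2.0 for T cell markers, 0.91 and 1.85 for cytotoxic effectors, 0.69 and 2.23 for NK cells, 0.32 and 1.03 for monocytes and macrophages, 0.08 and 0.40 for the type I interferon response, -0.087 and 0.65 for MHC class II, and -2.23 and 1.79 for muscle.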

How the data were processed

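The authors deposited a table of whole-number read counts by Ensembl gene for each library, without normalization. The build mm9, the aligner HISAT2 2.1.0 and the counter HTSeq 0.10.0 are named, per the submitters' processing notes, beside Trimmomatic 0.36, CASAVA 1.8.2, DESeq2 1.20.0, bcl2fastq and FastQC. The sources used here do not give the annotation or the strand setting, so reads of a gene and an antisense partner may not have been told apart. The 5 summary rows of each file stayed out of library sizes and tests. They held 4.04 to 12.21% of pairs in no feature and 18.38 to 24.34% of pairs that align more than once, and 60.19 to 70.71% of pairs were assigned to a gene. The counter's messages name 1 lane for all libraries. Symbols came from GENCODE M21 by Ensembl ID for 32897 of 37620 IDs.

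Groups came from the sample titles. Counts were tested in R 4.3.3 with edgeR 4.0.16 (quasi-likelihood, two-sided): 1 model with 6 group means over all 18 libraries (the pMC groups add to the estimate of spread), trimmed-mean scaling, filterByExpr at its defaults, 12 residual degrees of freedom, and Benjamini-Hochberg adjustment with a threshold of 0.05. The common dispersion of 0.0564 is a biological coefficient of variation of 23.7%. SE is the log2 value divided by the square root of F, and intervals use the model's degrees of freedom. CPM is counts per scaled library size of 1000000; a count of 0 allows 3 counts, or 0.118 to 0.23 CPM, and such floors cover counting error only. The scripts were tested on simulated data.

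The members and lists were chosen with earlier results of these data known. Genes named by rule were the 12 in each direction with the smallest p and a mean of at least 1 CPM, since 0 passed, and a list of 44 genes written from textbook roles; other genes were named after their values were seen. A list's counts are set beside the counts over all genes, with no test of the list. Some genes are not reported here. Of 32 lists, 1 (keratinocyte, 8 genes) had 0 tested members. Alternatives were another scaling, DESeq2 1.42.0, no filter, the 12 libraries alone, a replicate block, a muscle score, a length and GC correction, left-out libraries and 2 settings chosen after seeing the data.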

Additional observations from a re-analysis of the deposited data

How the results depend on the processing

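Over 29 alternatives 53 of 67 named genes kept the sign of the difference, and 25 passed in at least 1. The 67 include the 12 in each direction named for the smallest p in this same contrast. These counts partly follow from that choice, and the alternatives refit mostly the same libraries. The difference gave 0 calls with DESeq2 size factors, the 12 libraries alone or a muscle score, 7 with no filter, 6 with the length and GC correction, 87 with DESeq2 and 761 without the 3 libraries that stood apart. Without 1 library it gave 0 to 13 calls: 13 without right control 3, 6 without right control 2, 2 without left pMC 1, 1 without left IFN-alpha-pMC 3 and 0 in the rest. It had 41 calls with the replicate number as a block and 20 with right-left pairs as the block. The same-numbered right and left libraries had correlations of -0.25 to 0.6, over 0.1 in 5 of 9 pairs, and 5 of 9 right libraries matched their own number best. These values do not settle whether the numbers pair the samples, and the labels do not say, so the block fits stay alternatives. Of 2 settings chosen after seeing the data, a muscle score with the replicate block gave 22 calls and robust dispersion gave 0. The pair block cannot give the right and left effects. The causes of these changes were not tested, and leaving out the 3 libraries by itself tends to lower the estimated spread.

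The right effect gave 8175 calls without the 3 libraries, 1011 with a muscle score, 816 with it and the replicate block, 3157 with the length and GC correction, and 1090 to 3946 without 1 library (3946 without right control 3, 3105 without right IFN-alpha-pMC 3). The left effect gave 123 calls with the 12 libraries alone, 464 with the replicate block, 4331 without the 3 libraries, 175 with a muscle score, 132 with it and the replicate block, 2864 with DESeq2, and 86 to 4102 without 1 library. Those were 4102, 1832 and 2781 without right control 3, right control 2 and right IFN-alpha-pMC 3; 119, 113 and 86 without left control 1, 2 and 3; 394, 177 and 494 without left IFN-alpha-pMC 1, 2 and 3; 458, 442 and 428 without left pMC 1, 2 and 3; and 400, 645 and 624 without right pMC 2, right pMC 3 and right IFN-alpha-pMC 2. Statements that a gene passed on the left rest on the fit to all 18 libraries.

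Differences that changed sign were near 0 or wide. Without the 3 libraries Isg15 was at 0.93, H2-Aa 0.53, Tyr 0.24, Mlana 0.62, Pecam1 -0.28, Col1a1 -0.062 and Acta1 -0.48. With the length and GC correction Isg15 was at 0.20 and Col1a1 at -0.28. With the replicate block H2-Aa was at 0.018, with right-left pairs Ifnar1 was at 0.023, H2-Aa 0.095 and Acta1 -0.37, with a muscle score Acta1 was at -0.21, and with it and the replicate block H2-Aa was at 0.01008 and Acta1 at -0.088. Without 1 library the ranges were -0.38 to 0.38 for Isg15, -0.063 to 0.49 for Gbp2, -0.19 to 0.098 for Ifnar1, -0.39 to 0.47 for H2-Aa, -0.33 to 0.33 for Cd79a, -0.11 to 0.53 for Ccr7, -1.85 to 2.1 for S100a8, -1.0 to 0.18 for Mki67, -0.39 to 1.01 for Col1a1, -3.32 to 0.72 for Ckm and -3.12 to 2.67 for Acta1.

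With library totals of 14.35 to 23.43 in units of 1000000 counts and 3 libraries a group, the median SE was 0.35, and for 6687 of 14849 genes the 95% interval of the difference lay within -1 to 1.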

Other observations

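Immediate early genes, which cells switch on soon after stimulation, were all above 0 in the difference between the sides (19 of 19 tested, median 0.62). Of these, 7 had an unadjusted p under 0.05, 9 rose on the right and 2 on the left. Over all genes tested, 4.45% were higher at that p, 8.78% rose on the right and 4.05% on the left. Junb was at 49.5, 59.4 and 53.04 CPM in right and 21.7, 30.2 and 36.2 CPM in left IFN-alpha-pMC, against 21.1 to 25.6 CPM in controls, with a difference of 0.83 ± 0.24 (adjusted p = 0.287 in edgeR's test). Zfp36, which speeds the decay of cytokine messages, differed by 1.06 ± 0.32 (adjusted p = 0.354), and Egr2 by 1.37 ± 0.45 (adjusted p = 0.435).

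Of 9 tested B and plasma cell genes, 8 were above 0 in the difference (median 0.53), against 50.8% of all genes. At an unadjusted p under 0.05, 2 were higher, against 4.45%. On the right 5 rose and on the left 0, against 8.78% and 4.05%. Ighm, the antibody heavy chain mu, differed by 0.92 ± 0.32 (adjusted p = 0.497). Mzb1, a chaperone of antibody-making cells, was at 1.49, 1.14 and 0.79 CPM in right and 0.54, 0.49 and 0.22 CPM in left IFN-alpha-pMC, with 2 to 9 counts in each control library, and its difference was 2.0 ± 0.65 (adjusted p = 0.42). The B cell gene Cd79a differed by 0.08 ± 0.50 (95% interval -0.98 to 1.14).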
